A study of Hordeum vulgare with 39 samples.

Results

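Endosperm and seed maternal tissues of barley (Hordeum vulgare) were compared at 8 days after pollination (DAP). The comparison rests on 6 of the 39 libraries of the series, the 3 titled as endosperm and the 3 titled as seed maternal tissues at this stage. Of the 83990 transcript entries of the deposited count table, 29594 had enough reads to be tested. All plants were of the cultivar Morex, a six-rowed spring barley, untreated and raised in a climate chamber. Grains of 4 to 32 DAP were taken apart by hand into these tissues and the embryo, and their poly-A RNA was sequenced. P-values measure the spread between replicate libraries, estimated over all 39 libraries of the series and not over the 6 alone. The labels do not say how many grains or plants went into a library or whether the replicates came from separate plants, so this spread may be technical.

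The endosperm is a product of fertilization. It becomes multicellular early in grain development and then differentiates into the starchy endosperm, which fills with starch and storage proteins, the aleurone that surrounds it, and transfer cells that take up nutrients from the mother plant. The seed maternal tissues are the layers around it: the pericarp, which is green and photosynthetic in the young grain, the seed coat, and the remains of the nucellus, which breaks down as the endosperm grows.

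The files pair no identifier with a gene name, and 0 of the 83990 entries matched the reference gene table. Genes are therefore described as groups, and 4 are given by identifier. The labelled tissues could not be checked against known marker genes. Total counts were 15899434, 16695817 and 28245871 in endosperm replicates 1, 2 and 3, and 30844180, 28815346 and 27604777 in the maternal replicates. Replicates of the endosperm correlated at 0.992 to 0.994 and those of the maternal tissues at 0.983 to 0.995 (Pearson, across genes, log2(CPM + 1), where CPM is counts per 1000000 counts of the library; genes are not independent replicates). Maternal replicate 3 had the lower values with both others. The library numbers in the titles differ with tissue for replicates 1 and 2, and both replicate 3 libraries carry adjacent numbers (88540 and 88541).

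The tissues differed over close to the whole range of expression. Of 29594 entries with enough reads to be tested (genes from here on), 14389 (48.6%) differed at least 2-fold with an adjusted p under 0.05 (edgeR quasi-likelihood test). The filter on reads took in all 13 groups of tissue and stage, so some genes tested had 0 counts in the 8 DAP libraries of both tissues. Higher in endosperm were 7067 genes (23.9%), and 7322 (24.7%) were lower there, that is, higher in the maternal tissues. The median log2 fold change (endosperm over maternal) was 2.69 among the former and -3.16 among the latter. Many differences were large. At least 16-fold were 2586 of the genes higher in endosperm (36.6%) and 2839 of the genes lower there (38.8%), and 747 and 671 differed by at least 256-fold as fitted. Fitted values of genes with next to no reads in 1 tissue depend on the prior count of the model and are no bounds. By mean CPM of both tissues, the median log2 fold changes (higher, then lower in endosperm) were 4.96 and -4.63 under 1 CPM. From 10 to 100 CPM they were 1.74 and -2.54, and over 1000 CPM 4.00 and -3.94. In 6832 of the 7067 and 7183 of the 7322 genes the 3 libraries of 1 tissue all lay above the 3 of the other; over all genes tested, such separation was found in 35.2% with endosperm above and 33.7% with endosperm below.

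**Figure D1:**
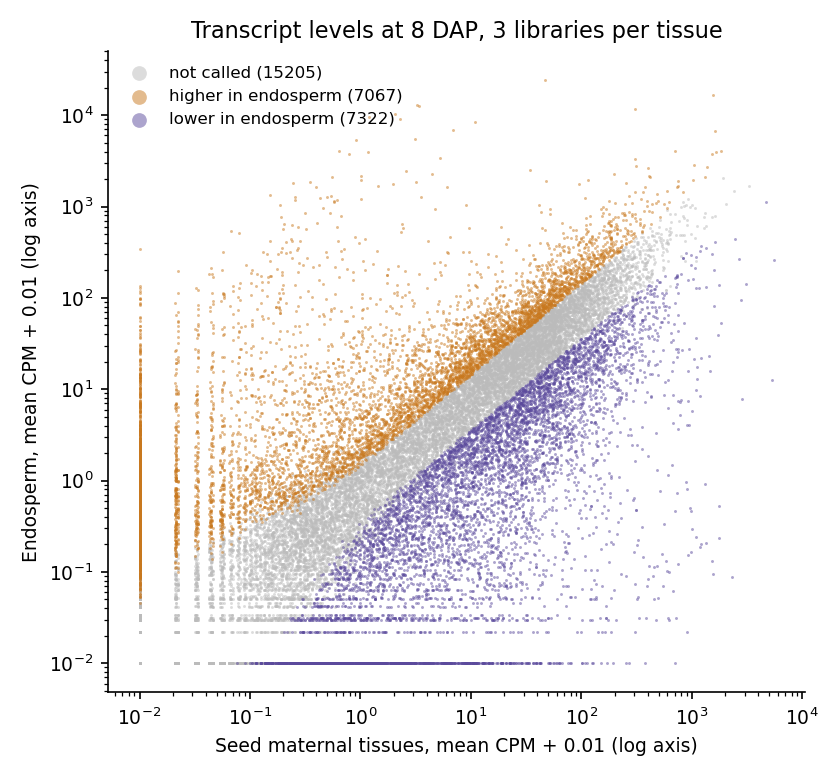
Mean CPM of each gene tested in seed maternal tissues (horizontal) and endosperm (vertical) at 8 DAP, both on log axes after adding 0.01; each point is 1 gene, coloured by its call. The 7067 orange genes lie above and the 7322 violet genes below a grey band of 15205 genes not called, and the columns of points at the left and bottom edges are genes with few or no reads in 1 tissue.

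Directions are relative to the TMM scale (trimmed mean of M-values), on which a gene with equal CPM in both tissues has a log2 fold change of about 0.47. With library size alone as the scale, 35.8% of calls were higher in endosperm in place of 49.1%. The share was 53.6% with upper-quartile factors, 43.8% with median-ratio factors and 42.6% with DESeq2. RNA was taken from whole dissected tissues, so more cells of a type and more RNA per cell cannot be told apart.

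The balance between the tissues changed with abundance. Among 64 genes above 1000 CPM (mean of both tissues), 43 (67.2%) were higher in endosperm and 10 (15.6%) were higher in the maternal tissues. Between 100 and 1000 CPM the shares were 31.7% and 23.6% of 2129 genes. The order was the other way from 10 to 100 CPM, with 23.3% higher in endosperm and 28.1% lower of 8970 genes, and from 1 to 10 CPM, with 25.9% and 33.5% of 8002 genes. Of the 10429 genes under 1 CPM, 21.0% and 15.4% were called. These shares are given on the TMM scale alone, so the smaller gaps between the directions may depend on it.

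**Figure D2:**
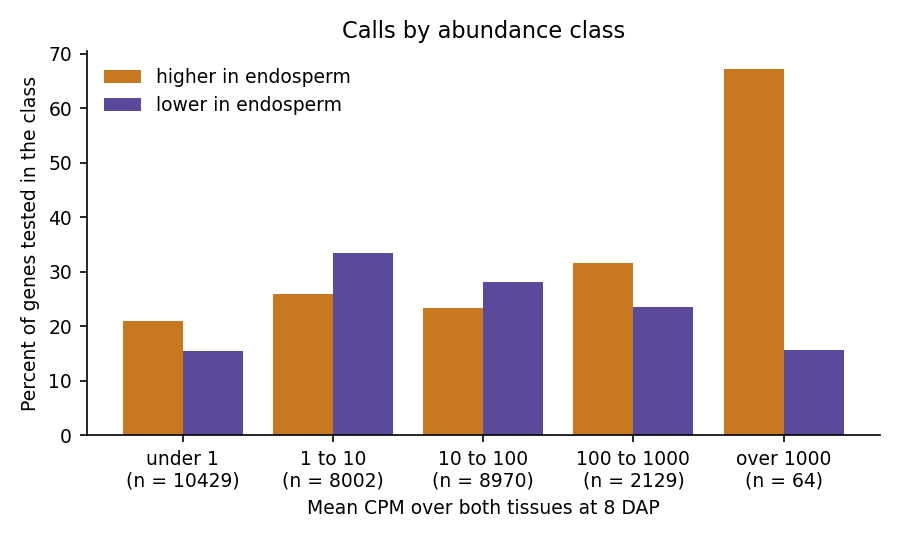
Percent of the genes tested in each abundance class (mean CPM over both tissues at 8 DAP) that were called higher (orange) or lower (violet) in endosperm. In the class over 1000 CPM, 67.2% of the genes were higher in endosperm and 15.6% lower, while from 1 to 10 CPM the lower calls led with 33.5% against 25.9%.

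The reads themselves were divided more sharply than the genes. Genes called higher in endosperm held 60.9% ± 1.17 of the counts of the endosperm libraries and 13.8% ± 1.03 of those of the maternal libraries (mean ± SD, n = 3). Genes called higher in the maternal tissues held 42.2% ± 0.935 of the maternal counts and 4.88% ± 0.335 of the endosperm counts. The genes were chosen on these 6 libraries, so the split is a description. The other libraries were not part of the contrast, though they entered the filter and the estimate of the spread in the shared model. The same division was seen in them. At 4, 16, 24 and 32 DAP the endosperm-high genes held 64.4% ± 2.21, 68.2% ± 4.85, 60.7% ± 1.24 and 48.4% ± 2.03 of the endosperm counts (n = 3 each). In the maternal tissues of 4, 16 and 24 DAP they held 17.8% ± 2.49, 13.5% ± 0.474 and 16.7% ± 0.375. The embryo lay between, at 34.9% to 39.9% as stage means. The maternal-high genes held 36.7% ± 3.38, 41.7% ± 1.31 and 36.8% ± 0.899 of the maternal counts at 4, 16 and 24 DAP. In the endosperm their share was 5.23% ± 1.02 at 16 DAP and went to 12.1% ± 0.697 in the last stage, 32 DAP, and in the embryo the stage means ran from 11.9% to 16.4%.

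**Figure D3:**
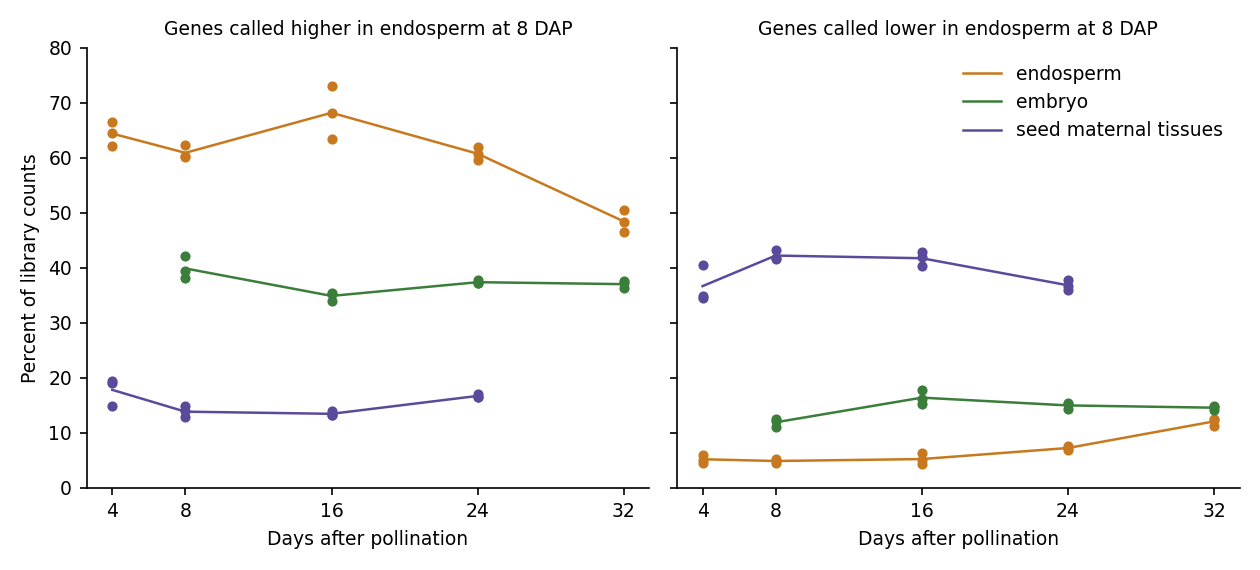
Percent of each library's counts in genes called higher (left) and lower (right) in endosperm at 8 DAP, by days after pollination; points are libraries (3 per group) and lines join group means. At 8, 16 and 24 DAP, where all 3 tissues were sampled, the endosperm libraries lie above and the maternal libraries below the embryo on the left, with the reverse order on the right, and the endosperm falls to 48.4% on the left at 32 DAP.

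The 100 genes with the most reads took 29.3% ± 1.68 of the endosperm counts and 14.4% ± 0.335 of the maternal counts (n = 3). The endosperm libraries ran from 28.0% to 31.2% and the maternal ones from 14.1% to 14.8%, without overlap. CPM is not corrected for transcript length, so these lists rank reads and not molecules. Of the endosperm list, 87 were called higher in endosperm, 1 lower and 12 were not called. Of the maternal list, 63 were called higher in the maternal tissues, 10 were higher in endosperm although among the most abundant of the maternal tissues too, and 27 were not called. The lists shared 21 genes, which is 21% of each.

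The gene with the most reads in endosperm was HORVU.MOREX.r3.2HG0124890.1, which also showed the largest excess over 4 and 16 DAP among genes with at least 100 CPM in every endosperm library of 8 DAP. It had 24115, 24334 and 24593 CPM in endosperm replicates 1, 2 and 3, or 2.43% of all counts, and 22.9, 54.5 and 64.6 CPM in the maternal replicates. All 3 endosperm libraries were far above the maternal ones, and they differed little among themselves. On the log2 scale endosperm exceeded the maternal tissues by 9.48 (SE 0.61, edgeR adjusted p = 9.30e-14). Its endosperm means were far lower in the other stages, with 97.9 ± 27.9, 695 ± 164, 86.5 ± 4.28 and 31.2 ± 3.61 CPM at 4, 16, 24 and 32 DAP (n = 3 each). In the embryo it reached 1405 ± 302 CPM at 16 DAP (n = 3). Its difference between the tissues was larger at 8 DAP than at 4 DAP by 7.08 on the log2 scale (SE 0.66, edgeR adjusted p = 4.24e-10) and larger than at 16 DAP by 5.10 (SE 0.63, edgeR adjusted p = 7.79e-07).

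The gene with the most reads in the maternal tissues was HORVU.MOREX.r3.1HG0005600.1. It had 5361, 5326 and 5835 CPM in the maternal replicates and 263, 271 and 254 CPM in the endosperm replicates, again without overlap. Its log2 fold change, endosperm over maternal, was -3.92 (SE 0.26), with an edgeR adjusted p of 9.94e-14. It was abundant in other tissues as well, with 6916 ± 2194 CPM in the embryo at 16 DAP and 852 ± 142 in the endosperm at 16 DAP (n = 3). The log2 fold change of 16 DAP was -0.57 (SE 0.24), and that of 8 DAP minus that of 16 DAP was -3.35 (SE 0.34, edgeR adjusted p = 1.54e-08).

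HORVU.MOREX.r3.7HG0635350.1 had the largest fitted excess over 4 and 16 DAP towards the maternal tissues, among genes with at least 100 CPM in every maternal library of 8 DAP. That rank rests on fitted values that depend on the prior count. It had 367, 391 and 375 CPM in the maternal replicates and 0 counts in each endosperm library. On the CPM scale the difference was at least 2002-fold (mean CPM over 3 counts in the shallowest endosperm library). The edgeR adjusted p was 7.57e-17. At 4 DAP the maternal level was higher still, at 1498 ± 142 CPM (n = 3), but the endosperm then had 2.31, 5.40 and 8.95 CPM. At 16 DAP the maternal level was 6.54 ± 1.46 CPM and at 24 DAP 4.45 ± 1.67 (n = 3), while the embryo had 2.12 ± 0.389 CPM at 8 DAP and 69.7 ± 10.5 CPM at 16 DAP (n = 3). Against 4 DAP the endosperm level was lower at 8 DAP, and against 16 DAP the maternal level was higher at 8 DAP. Without replicate 2 of the 16 DAP endosperm, the library of that group with its 2 reads of the gene, the excess over 16 DAP was no longer called (edgeR adjusted p = 0.9999). The endosperm libraries then had 0 counts of the gene at both 8 and 16 DAP, so that fit cannot decide on the excess.

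**Figure D4:**
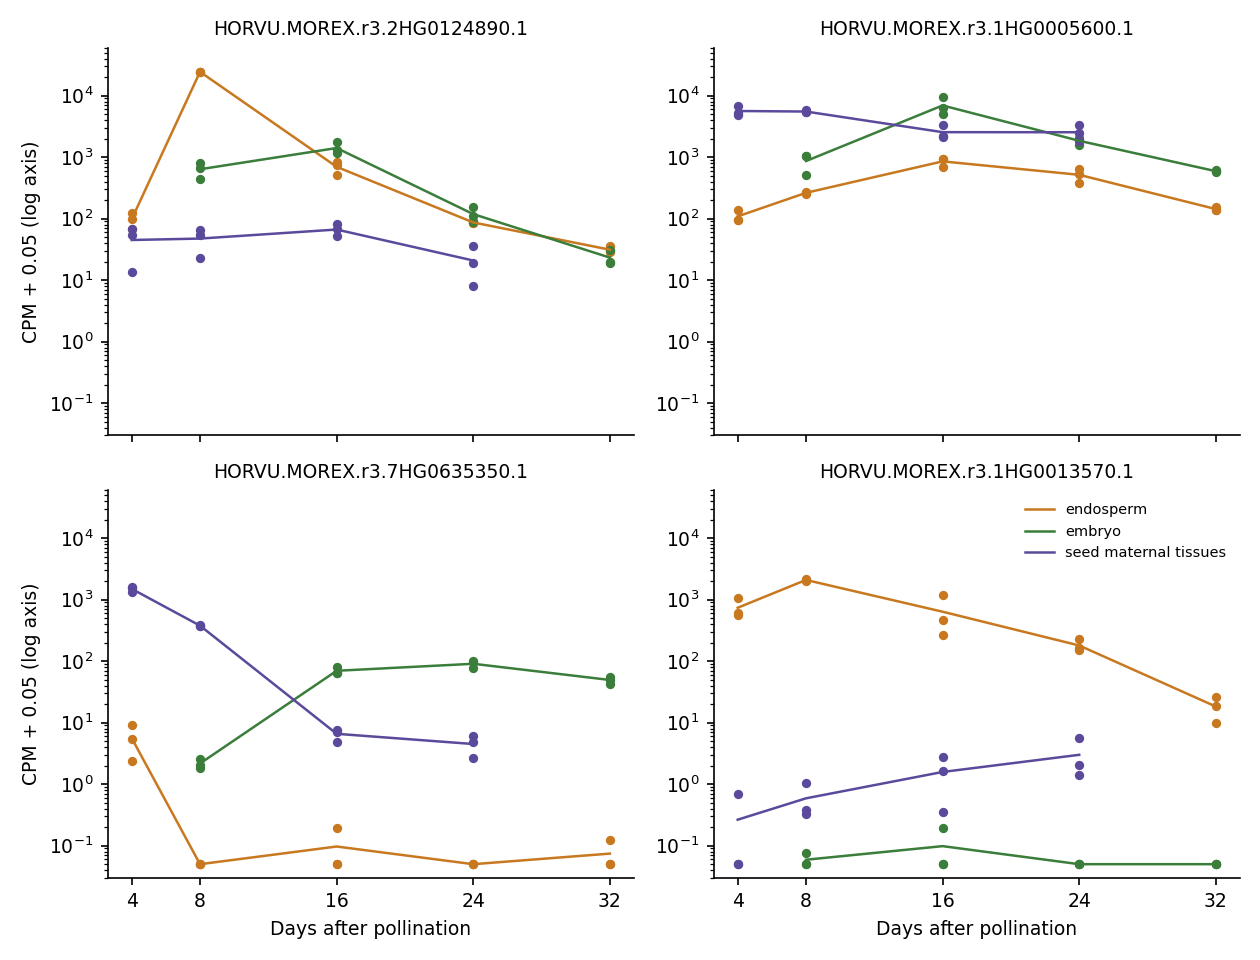
CPM + 0.05 on a log axis against days after pollination for 4 genes in endosperm, embryo and seed maternal tissues; points are libraries (3 per group) and lines join group means. The endosperm level of the first gene peaks at 24347 CPM at 8 DAP, the second is highest in the maternal tissues at 4, 8 and 24 DAP and in the embryo at 16 DAP, the third has 0 counts in the 8 DAP endosperm, and the fourth reaches 2092 CPM in the 8 DAP endosperm and at most 5.49 CPM in any library of the other tissues.

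A smaller group was close to exclusive to 1 of the tissues at this stage. In endosperm, 148 genes had at least 10 CPM in every library and at most 3 counts in every maternal library. In the maternal tissues, 293 genes had at least 10 CPM in every library and at most 3 counts in every endosperm library. This rule makes them called genes (148 of 148 and 293 of 293), which is no finding. Their mean levels ran from 10.9 to 536 CPM (median 27.8) in endosperm and from 10.6 to 2317 CPM (median 31.0) in the maternal tissues. Floors of 3 counts corresponded to 0.106 to 0.189 CPM in the endosperm libraries and 0.0973 to 0.109 in the maternal ones. On the CPM scale the differences were thus at least 101-fold to 4930-fold and at least 56.4-fold to 12279-fold. In the other tissue, 62 of the 148 and 100 of the 293 had 0 counts in all 3 libraries.

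These groups had different courses over the stages. Of the 148 endosperm genes, 53 (35.8%), 34 (23.0%), 28 (18.9%) and 20 (13.5%) had at least 10 CPM in every endosperm library of 4, 16, 24 and 32 DAP. Their median levels in these stages were 6.70, 5.38, 0.736 and 0.116 CPM. Of the 293 maternal genes, 146 (49.8%), 209 (71.3%) and 164 (56.0%) passed 10 CPM in every maternal library of 4, 16 and 24 DAP, with median levels of 20.6, 31.1 and 20.2 CPM. Since the groups were chosen for their levels at 8 DAP, fewer passing at other stages follows in part from the choice. In the 8 DAP embryo, 124 of the 148 endosperm genes (83.8%) were also at or under 3 counts in every library, against 136 of the 293 maternal genes (46.4%). In the maternal tissues at 24 DAP, 76 of the 148 (51.4%) were at or under this floor. The shares of all genes tested at or under it in these libraries are not given, so these shares are a description.

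**Figure D5:**
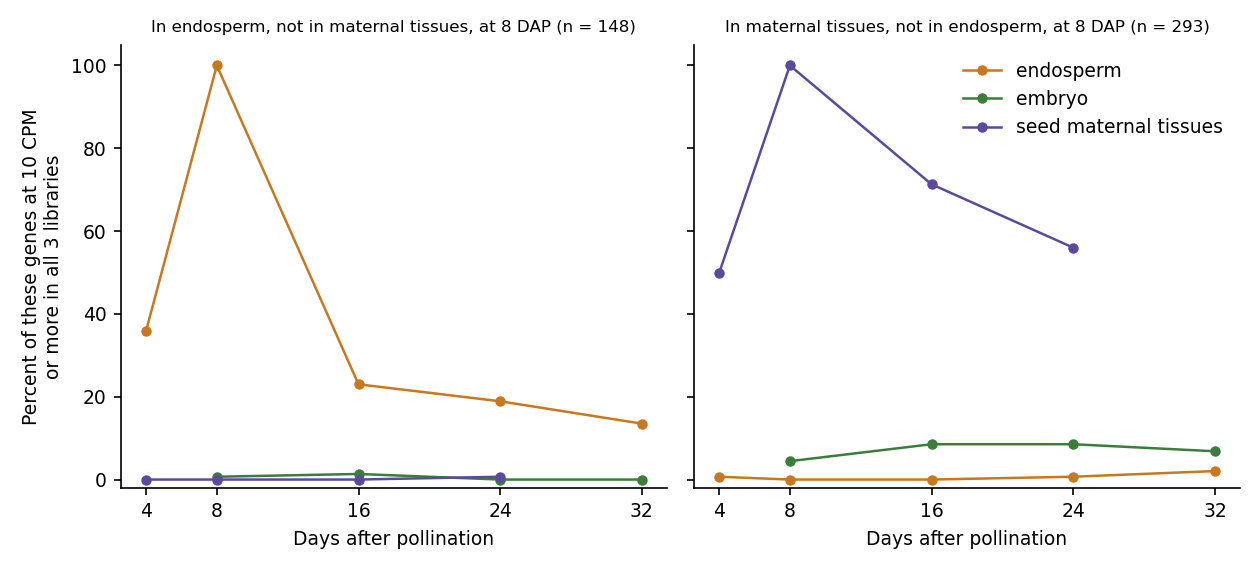
Percent of the 148 genes found in endosperm and not in maternal tissues at 8 DAP (left), and of the 293 genes with the reverse pattern (right), that had at least 10 CPM in all 3 libraries of a group, by days after pollination. The values of 100% and 0% at 8 DAP are set by the choice of the genes; at 16 DAP 23.0% of the endosperm genes and 71.3% of the maternal genes passed in their own tissue.

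Genes higher in 1 tissue came from all chromosomes. By the chromosome part of the identifiers, the share of tested genes called ran from 46.9% on 6H to 49.9% on 5H, close to the 48.6% of all genes. The share higher in endosperm was lowest on 3H (990 of 4500) and highest on 1H (25.6% of 3816). The share lower in endosperm was lowest on 6H (22.8% of 3685) and highest on 3H (26.7% of 4500). Of 157 tested genes that the identifiers place on no chromosome, 17.2% were called.

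Calls were often neighbours in the numbering of the identifiers, which is taken here as an order along each chromosome. For this, transcript entries of 1 gene were merged, genes on no chromosome were left out, and genes whose entries differed in their call counted as not called, which left 6992 genes higher and 7238 lower in endosperm. Runs of 3 or more successive tested genes called in 1 direction numbered 503 for higher in endosperm, with 1938 genes (27.7% of these), and 515 for lower, with 1864 genes (25.8%). Runs of 8 or more numbered 19 in the endosperm direction and 4 in the maternal direction. How many such runs the share of called genes would give without any grouping was not tested. The longest was a run of 17 on 5H, higher in endosperm, with a median level of 1.86 CPM in endosperm and summed levels of 88.0 CPM in endosperm and 36.9 CPM in the maternal tissues. The longest in the maternal direction was a run of 11 on 7H, with a summed level of 237 CPM in the maternal tissues and 26.2 CPM in endosperm.

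A run of 12 on 1H carried far more reads than the other long runs. Its summed level was 5282, 5619 and 6178 CPM in endosperm replicates 1, 2 and 3 and 0.908, 0.902 and 4.60 CPM in the maternal replicates, of which replicate 3 was the highest. Between its first and last identifier lie 29 identifiers, of which 17 were not tested for want of reads. Of the 12 genes, 7 had at least 100 CPM in endosperm and 3 at least 1000 CPM, and none had a mean above 0.564 CPM in the maternal tissues. All 12 were called (largest edgeR adjusted p 0.00128). In the endosperm of 4, 16, 24 and 32 DAP the sums were 2645 ± 764, 1359 ± 1021, 323 ± 93.1 and 30.0 ± 13.8 CPM (n = 3 each). At 16 DAP the libraries were far apart, at 1122, 2478 and 477 CPM. In endosperm, 9 of the 12 genes had their highest mean at 8 DAP and 3 at 4 DAP. The embryo had next to none, with 1, 1 and 5 counts in all at 8 DAP. The most abundant gene of the run, HORVU.MOREX.r3.1HG0013570.1, was singled out after its values were seen. It had 2022, 2095 and 2158 CPM in endosperm and 0.324, 0.278 and 1.01 CPM in the maternal replicates (log2 fold change 12.39, SE 1.05, edgeR adjusted p = 2.77e-10). If genes of a run are near-identical copies, the counting could have split or dropped reads between them, so levels of single genes in it are uncertain.

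The tissues were next checked with genes chosen at the other stages. Genes called higher in endosperm at 4, 16 and 24 DAP with at least 20 CPM there numbered 342, and those with the reverse pattern 1159. At 8 DAP, 314 of the 342 (91.8%) were called higher in endosperm, against 23.9% of all genes tested, 1 was called lower and 27 were not called. Of the 1159, 1024 (88.4%) were called lower in endosperm, against 24.7% of all, 2 were called higher and 133 were not called. The shares of all genes are not matched for level, as 10429 of the genes tested had under 1 CPM. The endosperm set held 15.0%, 15.0% and 15.3% of the counts of the endosperm libraries and 2.32%, 2.54% and 2.80% of those of the maternal libraries. The maternal set held 21.2%, 20.0% and 19.9% of the maternal counts and 2.26%, 2.21% and 2.07% of the endosperm counts. No libraries overlapped for either set (exact two-sided permutation test, p = 0.1, the smallest that 3 against 3 libraries can give). The embryo, for comparison, had 6.07% and 3.71% of its 8 DAP counts in these sets. Carry-over between the tissues in dissection was not tested.

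The calls were also read in libraries left out of the fit that made them, though not out of the filter on low counts. Without both replicate 3 libraries, 6385 genes were called higher and 6630 lower in endosperm. In the pair of replicate 3, whose library numbers are adjacent, 6266 of the former (98.1%) and 6539 of the latter (98.6%) had a log2 ratio of the same sign (TMM-scaled CPM, 0.5 added), and 77.2% and 81.4% differed at least 2-fold that way. Over all genes tested, 49.3% had a positive ratio and 20.4% were at least 2-fold higher in endosperm. The shares of all genes in the maternal direction are not given. With a term for the library-number group added to the model, 12620 genes were called at 8 DAP (6057 higher and 6563 lower), and 11890 of the calls (82.6%) were shared with the model without it.

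The calls were then read in the tissue comparisons of the other stages, which contrast other libraries within the same model. At 4 DAP, 57.4% of all genes tested were called, 25.0% higher and 32.4% lower in endosperm. Of the 7067 genes higher at 8 DAP, 3882 (54.9%) were higher and 560 (7.92%) lower there, and of the 7322 genes lower at 8 DAP, 5033 (68.7%) were lower and 399 (5.45%) higher. At 16 DAP, 49.2% of all genes were called, 22.7% higher and 26.5% lower. The shares were larger there, with 4570 (64.7%) of the former higher and 5413 (73.9%) of the latter lower, and 140 (1.98%) and 172 (2.35%) in the opposite direction. At 24 DAP, 44.4% were called, 18.8% higher and 25.6% lower, and 3366 (47.6%) and 4741 (64.8%) kept their direction, against 250 (3.54%) and 287 (3.92%) with the opposite one. In each of these stages a larger share of the maternal-high than of the endosperm-high genes was called in the same direction, as was also true of the background.

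Whether the tissue difference at 8 DAP was that of the neighbouring stages was tested directly, as a difference of the differences. Against 4 DAP, 11178 of 29594 genes (37.8%) differed, 20.7% with a difference more towards endosperm at 8 DAP and 17.0% with one more towards the maternal tissues. Against 16 DAP 4218 (14.3%) differed, 8.14% and 6.12% in these directions. Of the 7067 genes higher in endosperm at 8 DAP, 1830 (25.9%) had a larger difference than at 4 DAP, 1002 (14.2%) a smaller one, and 4235 were not called in this test. Against 16 DAP, 1000 (14.2%) were larger and 205 (2.90%) smaller. Of the 7322 genes lower in endosperm, 1873 (25.6%) were larger and 922 (12.6%) smaller than at 4 DAP, and 1034 (14.1%) were larger and 505 (6.90%) smaller than at 16 DAP. Genes chosen for a difference at 8 DAP lean towards a larger difference there by that choice. The genes called in opposite directions at 8 DAP and at another stage, given above for 4 and 16 DAP, all had a called difference of the differences too.

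The count against 16 DAP was lower with a term for the library-number groups. The 16 DAP maternal libraries share a number group with the 24 DAP maternal libraries and an embryo library of 24 DAP. All libraries of both maternal stages fall into it, so the adjustment for that group rests on the 24 DAP embryo alone. With the term for the library-number groups, 999 genes differed, 37.7% of them upwards, that is, more towards endosperm at 8 DAP. Without it 4218 differed, of which 57.1% went upwards. Against 4 DAP the count was 10851 with this term, but the 4 DAP endosperm libraries fill a number group of their own, so stage and library number cannot be told apart there. The directions also changed with the scale. Against 4 DAP, 54.9% went upwards with TMM factors and 74.1% with library size alone, but 45.7% with median-ratio factors and 45.1% with DESeq2. Against 16 DAP the share was 82.0% with library size alone, 46.9% with upper-quartile factors, 48.0% with median-ratio factors and 47.4% with DESeq2. The leading direction of either comparison is therefore not settled.

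Genes whose difference was larger at 8 DAP than at both 4 and 16 DAP numbered 318 among those higher in endosperm (4.50% of them) and 232 among those lower (3.17%). Genes with a large fitted excess that was not called, as described above, are not among them. With the library-number term, which has the limit given above for 16 DAP, the counts were 77 and 82. Among the 318, the endosperm mean was higher at 8 DAP than at both other stages in 286, and the median level went from 1.78 CPM at 4 DAP to 17.9 at 8 DAP and 4.40 at 16 DAP, while the maternal medians were 5.98, 3.09 and 5.85 CPM. Among the 232, the maternal mean was highest at 8 DAP in 86. There the maternal medians were 26.6, 28.5 and 18.5 CPM at 4, 8 and 16 DAP, and the endosperm medians were 4.68, 0.998 and 3.38 CPM. Among the 318, the endosperm median was at its highest of these stages at 8 DAP and the maternal median at its lowest. Among the 232, a low endosperm median at 8 DAP stood beside a maternal median close to that of 4 DAP. A higher level in the higher tissue at 8 DAP, a lower one in the other, or both follow from the choice of these genes, so the levels are a description.

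Change from 4 to 16 DAP was compared last. Its contrasts hold no 8 DAP library, but the genes were chosen on those libraries, which also entered the estimate of the spread. With the compared groups alone in each fit, 7686 in place of 8344 called genes changed in the endosperm and 4644 in place of 5729 in the maternal tissues. In the endosperm 54.0% of all genes tested changed, and in the maternal tissues 31.4%. In the endosperm, 2428 of the 7067 endosperm-high genes rose (34.4%, against 28.6% of all genes tested) and 2235 fell (31.6%, against 25.5%). Of the 7322 maternal-high genes, 1783 rose (24.4%) and 1898 fell (25.9%) in the endosperm, close to the shares of all genes. In the maternal tissues, 2070 of the maternal-high genes rose (28.3%, against 17.4% of all) and 1345 fell (18.4%, against 14.0%). Of the endosperm-high genes, 1102 rose (15.6%) and 1212 fell (17.2%) there. With the library-number term, 406 of the 6563 maternal-high genes rose (6.19%) and 518 fell (7.89%) in the maternal tissues, so rising genes no longer outnumbered falling ones. The shares of all genes tested are not given with this term, so an excess over them cannot be judged. The library numbers of the 4 and 16 DAP maternal libraries fall into different groups, and the term for the latter group rests on the 24 DAP embryo alone. In the endosperm the term cannot adjust this change, since the 4 DAP libraries fill a number group of their own.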

How the data were processed

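The deposited file holds whole-number read counts per transcript entry, 1 column per library, neither pooled nor normalized by the authors, per the file headers and values. The submitters' processing notes name bcl2fastq, HISAT2 2.1.0, SAMtools and Subread 1.5.2. The genome build, strand setting and handling of multi-mapped reads are not given in the sources used here. Columns were matched to samples by the library number in the title, and 0 columns were left out.

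Of 83990 entries, 29594 passed edgeR's filterByExpr over 13 groups. One model was fitted to all 39 libraries (edgeR 4.0.16, R 4.3.3, limma 3.58.1; TMM factors, robust quasi-likelihood, 26 residual degrees of freedom). P-values were adjusted by Benjamini-Hochberg over all entries tested, and calls needed an adjusted p below 0.05 and a log2 fold change of 1 or more in size. SEs come from the F statistic. CPM uses library totals. Scripts were tested on simulated data. Floors of 3 counts cover counting error only, as amplified reads need not be separate molecules. Fold bounds divide the mean CPM by 3 counts in the shallowest library of the lower tissue. They use library totals and not the TMM scale, on which bounds towards the maternal tissues would be lower.

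Named genes were, for each direction, the called gene of highest mean CPM and, among genes with at least 100 CPM in every library of the higher tissue, the one with the largest excess over 4 and 16 DAP; 1 gene came under both rules, and another was chosen after its values were seen. Members, groups and tests were chosen with earlier results of these data known. Planned lists of gene families were not run, for want of names. Alternatives were other scalings, filters and terms, DESeq2 1.42.0, entries summed to genes, the compared groups alone, and leaving out each library.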

Additional observations from a re-analysis of the deposited data

Results flagged for a closer look

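The tissue difference was tested as different between 8 and 4 DAP for 11178 genes and between 8 and 16 DAP for 4218 genes, which puts these comparisons of stages among the results to look at again. With the library-number term, which has the limit given above for 16 DAP, the second count was 999. Among the genes given by identifier, the difference of HORVU.MOREX.r3.2HG0124890.1 was larger at 8 DAP than at 4 DAP by 7.08 and than at 16 DAP by 5.10 on the log2 scale, towards endosperm. That of HORVU.MOREX.r3.1HG0005600.1 differed from 16 DAP by -3.35, towards the maternal tissues. For HORVU.MOREX.r3.7HG0635350.1 the fitted values were -8.86 against 4 DAP and -9.72 against 16 DAP; it had 0 counts in the 8 DAP endosperm, so both depend on the prior count and are no bounds. The 3 calls against 16 DAP were also made with the library-number term, but that of HORVU.MOREX.r3.7HG0635350.1 was lost without replicate 2 of the 16 DAP endosperm (edgeR adjusted p = 0.9999). That fit had 0 endosperm counts of the gene at both stages and cannot decide on the excess. Against 4 DAP, stage and library number cannot be told apart.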

How the results depend on the processing

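Under all alternatives run, the 8 DAP count stayed between 12620 and 17790 genes, and no call was turned to the opposite direction in the alternatives compared entry by entry (all but the summing of entries to genes). Leaving out 1 library at a time gave 13444 to 13943 genes at 8 DAP, 10298 to 11366 for the comparison with 4 DAP, 3497 to 4155 for that with 16 DAP, 7572 to 8503 of the called genes for the endosperm from 4 to 16 DAP and 5185 to 6178 for the maternal tissues. Counts that moved were the comparison with 16 DAP (999 with the library-number term, 6472 with library size alone, against 4218) and the called genes that changed in the maternal tissues from 4 to 16 DAP (1967 with that term, 40.0% of them rising, and 8735 without a fold minimum, 47.8% of them rising, against 5729, of which 55.4% rose). Same-numbered libraries of the tissues correlated in their deviations from the group means at 0.0631, 0.0795 and 0.183, and not every library correlated best with its own number, so the numbers were not taken as pairs. A replicate block gave 14298 genes at 8 DAP, sharing 14180 calls (98.5%), and moved no other count by over 1.5 times. Library size alone shifted the median log2 value of all genes to -0.34 at 8 DAP, 0.92 against 4 DAP and 0.67 against 16 DAP (0.23 and 0.15 with TMM factors). The log2 ratio of the summed tissue sets (endosperm over maternal) was 2.57 and -3.22, 2.07 and -3.38 with a minimum of 100 CPM, and 2.50 to 2.64 and -3.25 to -3.19 without 1 library each. Requiring 0 counts in the other tissue left 62 endosperm and 100 maternal genes. The 10 and 1000 most abundant genes held 12.2% and 59.0% of the endosperm counts and 3.51% and 45.1% of the maternal counts. For HORVU.MOREX.r3.7HG0635350.1, leaving out 1 library moved the excess over 16 DAP between -10.33 and -5.94. With the compared groups alone in the fit, the edgeR adjusted p-values at 8 DAP of the 4 genes given by identifier were higher. They were 9.98e-07 for HORVU.MOREX.r3.2HG0124890.1, 5.86e-09 for HORVU.MOREX.r3.1HG0005600.1, 6.12e-09 for HORVU.MOREX.r3.7HG0635350.1 and 8.14e-08 for HORVU.MOREX.r3.1HG0013570.1. Causes of these shifts were not tested. Endosperm replicates 1 and 2 had the fewest reads, so their floors limit how low a level could be seen.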

Other observations

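The levels of the called genes were also read in the 8 DAP embryo, a tissue outside the comparison. Among the 7067 genes higher in endosperm, the median embryo level was 2.57 CPM, beside 7.12 in endosperm and 0.903 in the maternal tissues. The embryo mean was above both in 2363 of them (33.4%), between both in 2888 (40.9%) and below both in 1816 (25.7%). Among the 7322 genes lower in endosperm, the median embryo level was 1.52 CPM, beside 0.631 in endosperm and 10.9 in the maternal tissues. There the embryo mean was above both in 1051 (14.4%), between both in 4091 (55.9%) and below both in 2180 (29.8%). Under 1 CPM in the embryo were 43.3% of the genes higher and 45.5% of the genes lower in endosperm. The shares of all genes tested are not given, and a wider gap between the tissues leaves more room between them. The shares are therefore a description.

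For 239 genes more than 1 transcript entry was tested, and in 1 of them entries were called in opposite directions.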
